A study of Mus musculus with 8 samples.

Results

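A set of 37 marker genes of monocytes and macrophages, neutrophils, dendritic cells, red cells and platelets was followed through RNA-seq libraries of mouse CD8+ T cells. The set was given by name and covers 37 of the 45777 genes counted. It was examined as a measure of RNA from cells other than T cells. The CD8+ T cells were primary cells from the spleen and lymph node of C57BL/6 mice. They were stimulated through CD3 and CD28 with antibodies and cultured for 48 hours in the presence of an agent or of vehicle. There were 4 groups of 2 libraries. DMSO was the vehicle control, EnPGC-1 and Ctrl PIP were the compounds that the labels call PIPs, and SGC-CBP30 is an inhibitor of the bromodomains of the coactivators CBP and p300. All groups shared the mouse strain and the activation. The labels give no doses and no animal ages, and they do not say whether the libraries of a group came from separate animals or cultures. The p-values therefore rest on the scatter of these libraries alone, and that scatter may be technical. The sources used here do not give the purification method.

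Spleen holds many cells besides T cells. Macrophages clear old red cells there, neutrophils and dendritic cells pass through or reside there, and in mice the red pulp also makes blood cells, so that granulocyte precursors, erythroblasts and megakaryocytes occur in it. Each lineage has products that T cells hardly make. Myeloperoxidase (Mpo) and neutrophil elastase (Elane) fill the first granules of immature granulocytes, the haemoglobin chains fill red cells, and Pf4 and Ppbp fill the alpha granules of platelets. Other genes of the set are less exclusive. Activated T cells and NK cells are known to express 7 of the 37, namely Itgam, Itgax, Fcer1g, Tyrobp, Fcgr3, Cst3 and Cd68, so that the other 30 are the narrower markers.

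Across the libraries the granule and megakaryocyte genes shared 1 pattern, and the globins shared another. The promoters of these members, on which the results turn, are given first. They come from RefSeq on GRCm38.p6, are written 5′ to 3′ on the strand of the gene, and end at the base before the annotated start. The 250 bases before the start of 2 granule protease genes and 2 megakaryocyte genes are at chr11:87793534-87793783 on the plus strand for Mpo, chr10:79886062-79886311 on the plus strand for Elane, chr5:90772185-90772434 on the plus strand for Pf4, and chr11:102469884-102470133 on the minus strand for Itga2b. Capitals mark AGGAAG, the core bound by ETS factors such as PU.1 (the product of the member Spi1) and FLI1, on either strand, where it reads CTTCCT on the other strand.
Mpo: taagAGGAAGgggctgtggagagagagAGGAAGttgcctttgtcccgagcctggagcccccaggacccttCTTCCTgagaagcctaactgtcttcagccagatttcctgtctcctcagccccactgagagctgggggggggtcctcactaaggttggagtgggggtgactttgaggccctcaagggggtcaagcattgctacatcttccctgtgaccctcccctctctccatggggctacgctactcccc
Elane: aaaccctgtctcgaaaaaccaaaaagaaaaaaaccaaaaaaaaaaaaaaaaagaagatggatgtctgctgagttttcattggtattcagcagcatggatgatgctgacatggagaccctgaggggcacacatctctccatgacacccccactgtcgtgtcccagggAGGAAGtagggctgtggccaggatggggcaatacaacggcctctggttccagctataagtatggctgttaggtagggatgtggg
Pf4: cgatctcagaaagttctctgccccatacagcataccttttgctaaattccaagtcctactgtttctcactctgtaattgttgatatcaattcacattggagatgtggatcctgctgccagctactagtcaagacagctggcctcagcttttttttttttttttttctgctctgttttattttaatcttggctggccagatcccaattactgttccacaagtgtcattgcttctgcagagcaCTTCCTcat
Itga2b: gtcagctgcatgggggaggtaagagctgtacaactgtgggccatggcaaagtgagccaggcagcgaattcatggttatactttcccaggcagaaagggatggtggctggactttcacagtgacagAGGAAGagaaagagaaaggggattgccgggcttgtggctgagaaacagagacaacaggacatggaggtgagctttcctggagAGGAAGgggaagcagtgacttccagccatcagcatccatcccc
The letters AGGAAG occurred 3 times in the Mpo window, 2 times in that of Itga2b and 1 time each in those of Elane and Pf4. Of all 32851 promoter windows of this length, 29.5% held the motif on either strand, and of the 33 windows matched to 32 of the members 48.5% did. The motif was chosen after the sequences had been seen, and a match describes letters only.

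The 120 bases before the start of the 4 adult globin genes are at chr11:32283552-32283671 for Hba-a1 and chr11:32296372-32296491 for Hba-a2, both on the plus strand, and at chr7:103827929-103828048 for Hbb-bs and chr7:103813924-103814043 for Hbb-bt, both on the minus strand. Capitals mark the CACCC-type box (ACACCC or CCACCC), the kind of site that the red cell factor KLF1 binds, and the TATA box (TATAAA or TATAAG).
Hba-a1: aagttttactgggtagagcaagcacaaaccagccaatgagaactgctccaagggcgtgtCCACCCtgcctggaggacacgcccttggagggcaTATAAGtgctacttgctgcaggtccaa
Hba-a2: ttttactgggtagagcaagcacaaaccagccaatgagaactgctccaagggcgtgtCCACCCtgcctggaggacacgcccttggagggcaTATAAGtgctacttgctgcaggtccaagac
Hbb-bs: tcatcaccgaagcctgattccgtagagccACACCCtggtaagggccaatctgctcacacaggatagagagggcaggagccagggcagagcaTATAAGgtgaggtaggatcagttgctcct
Hbb-bt: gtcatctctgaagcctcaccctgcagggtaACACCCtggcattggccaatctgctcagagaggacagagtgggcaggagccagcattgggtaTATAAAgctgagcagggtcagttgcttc
All 4 windows held both elements once. Either CACCC form, on either strand, occurred in 37.6% of all windows of 250 bases and in 54.5% of the members' windows, and either TATA form, on the given strand, in 11.2% and 30.3%. A GATA core (AGATAA or TGATAA, either strand) was in 16.6% of all windows and 33.3% of the members' windows. The windows of the alpha globin pair shared a run of 117 bases, and those of the beta globin pair shared at most 14. The coding sequences of Hba-a1 and Hba-a2 differed at 1 of 429 bases and those of Hbb-bs and Hbb-bt at 1 of 444, in the longest open reading frames of the GENCODE transcripts. How the counting divided reads between such copies is not given, so the split within a pair is uncertain. The 2 genes of a pair are not independent measurements.

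Levels are CPM, that is, counts scaled to the effective library size, and levels of different genes are compared per kilobase of the longest transcript. Total counts were 38890043 to 55491261 per library, and 3 counts in a library, the limit that a count of 0 allows, corresponded to 0.0552 to 0.0728 CPM; such limits cover counting error only. The table held few low counts among the members. Of their 296 values, 84 were 0, 0 were 1, 0 were 2 and 7 were 3, whereas the whole table held 3861 values of 1 and 3406 of 2, so a listed 0 may stand for a few reads, which was not tested. The defining T cell markers were present in every library. The 10 genes of the CD8+ T cell lineage summed to 4405 to 6298 CPM, with Cd8a at 904.1 to 1241 CPM. In the same libraries the 37 members summed to 111, 90.6, 215, 79.7, 75.5, 69.2, 73.4 and 55.2 CPM (DMSO replicates 1 and 2, EnPGC-1 1 and 2, Ctrl PIP 1 and 2, SGC-CBP30 1 and 2, the order used for all 8 values below). The libraries labelled replicate 1 of both DMSO and EnPGC-1 stood apart from the libraries labelled replicate 2 of the same groups. This held for the members and for genes at large. The medians over the members, and the Itgax result for EnPGC-1 against DMSO, are given with and without them. Most fold changes of other single genes, and the counts of directions, are given only with them.

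Most of the narrower markers fell into 2 patterns. Granulocyte precursor, platelet and erythroid precursor genes were high in replicate 1 of EnPGC-1 and, at a lower level, in replicate 1 of DMSO. Globin genes were highest in replicate 2 of EnPGC-1 and lowest in replicate 2 of SGC-CBP30. Cst3, Cd68, Itgam and Zbtb46 varied least, by at most 2.10-fold over the 8 libraries. Some macrophage genes, among them Csf1r and Cd14, had another order. No member passed the adjusted threshold of edgeR's quasi-likelihood test in any of the 4 comparisons, with 2 libraries a group, nor did any of the 16750 genes tested (background 0%). At an unadjusted p under 0.05 there were 0 to 5 members per comparison, and DESeq2's Wald test called 1 member, Itgax, in 1 comparison. In bulk RNA, fewer cells of a type and less RNA per cell cannot be told apart. Counts were found in all 8 libraries for 16 members, 21 members were at 0 in at least 1 library, and 4 members had counts in 1 library only. The number of members at 0 was 6, 11, 3, 15, 13, 10, 12 and 14, lowest in replicate 1 of EnPGC-1 and highest in its replicate 2.

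**Figure D1:**
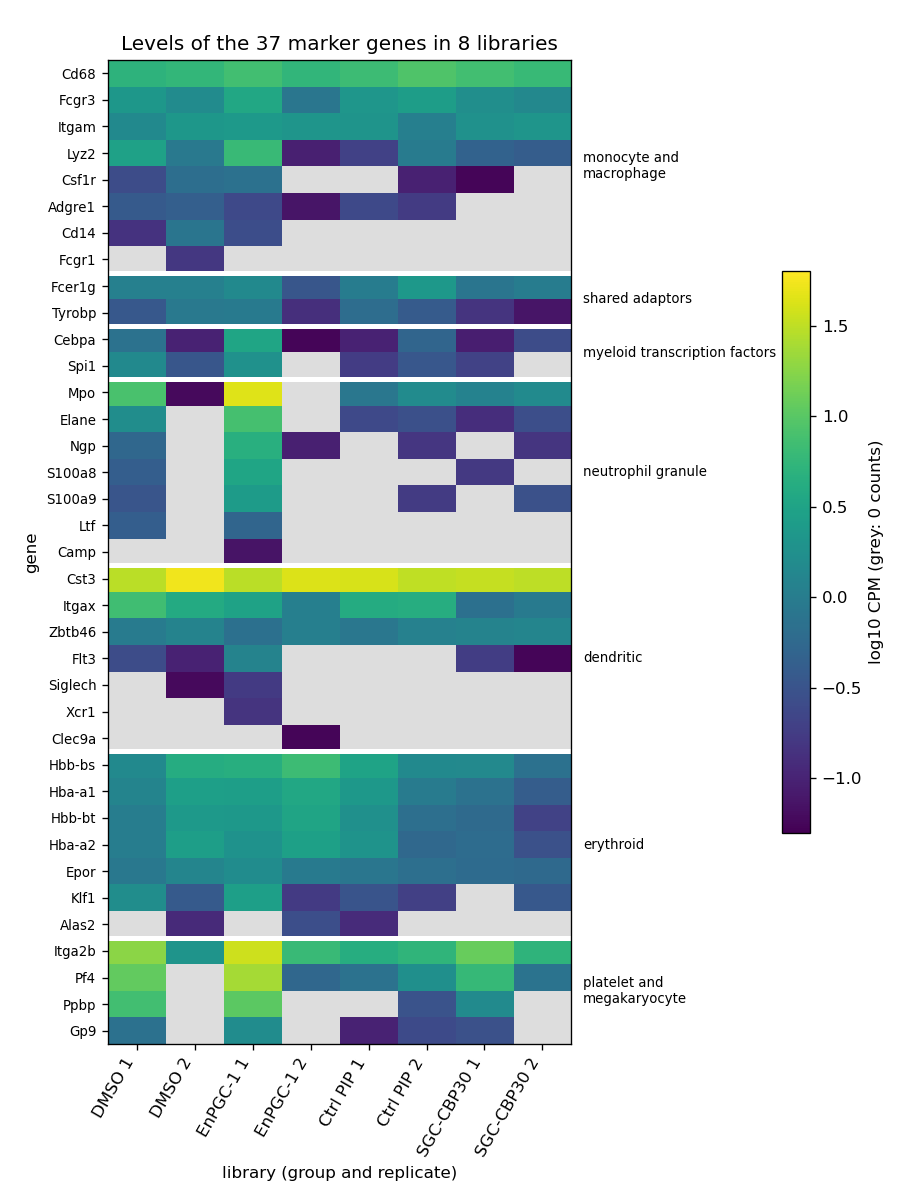
Levels of the 37 marker genes (rows, grouped by lineage) in the 8 libraries (columns, named by group and replicate), coloured by log10 CPM, with grey for 0 counts. The neutrophil and platelet rows are brightest in replicate 1 of EnPGC-1 and mostly grey or dark in replicate 2 of both DMSO and EnPGC-1, while Cst3 and Cd68 are of like brightness in all columns.

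The granule genes of neutrophils and their precursors had the widest range. Mpo, the peroxidase of the azurophil granule, stood at 8.08, 0.059, 44.3, 0, 0.86, 1.56, 1.20 and 1.53 CPM. These values come from 340, 3, 1825, 0, 43, 81, 65 and 82 counts. Replicate 1 of EnPGC-1 was therefore far above every other library, replicate 1 of DMSO was second, and both groups spanned the whole range of the Ctrl PIP and SGC-CBP30 libraries. Elane, the serine protease of the same granule, followed with 1.66, 0, 7.74, 0, 0.24, 0.289, 0.129 and 0.280 CPM. Ngp, a protein of the secondary granule, was at 0.547, 0, 4.59, 0.093, 0, 0.154, 0 and 0.149 CPM. The 2 highest libraries were the same for these genes, and in both groups replicate 2 was at or near 0.

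The other neutrophil members had the same highest library at lower levels. S100a8 and S100a9, which form the calcium-binding calprotectin of mature neutrophils and monocytes, reached 3.30 and 2.50 CPM in replicate 1 of EnPGC-1. In replicate 1 of DMSO they stood at 0.428 and 0.333 CPM, and in the other 6 libraries at 0 to 0.298. Ltf (lactoferrin) was listed only in replicate 1 of both DMSO and EnPGC-1, at 0.428 and 0.510 CPM, and Camp (cathelicidin) only in replicate 1 of EnPGC-1, at 0.073. Per kilobase, the highest levels in that library were 16.1 CPM for Mpo, 7.87 for Elane, 6.63 for S100a8, 4.82 for S100a9 and 3.76 for Ngp. The 2 azurophil granule genes were thus above the others there. All 7 genes of the lineage were highest in replicate 1 of EnPGC-1, and their sum was 11.5, 0.059, 63.0, 0.093, 1.10, 2.18, 1.49 and 2.26 CPM.

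A list of 11 further neutrophil genes held 4 that passed the filter on low counts, and 2 of these were highest in replicate 1 of EnPGC-1. The most abundant were Ctsg (cathepsin G), at 1.95, 0, 11.6, 0.111, 0.18, 0.270, 0.202 and 0.261 CPM, and Prtn3 (proteinase 3), at 0.880, 0, 6.87, 0, 0.10, 0.366, 0.258 and 0.187 CPM. Both are azurophil granule proteases like Elane. The other 2 tested genes, Padi4 and Mmp9, named after their values were seen, were highest in replicate 2 of DMSO (0.790 CPM) and replicate 2 of Ctrl PIP (0.424 CPM). The untested genes of the list were named after their values were seen. Csf3r, Cxcr2, Mmp8, Lcn2 and Cebpe were highest in replicate 1 of EnPGC-1, at 0.437, 0.437, 0.364, 0.583 and 0.243 CPM. Ly6g was listed only in replicate 2 of DMSO, at 0.059 CPM. Retnlg, a gene of mature neutrophils, was at 0 in all 8 libraries. The mast cell, basophil and eosinophil list was also highest in replicate 1 of EnPGC-1 (98.4 CPM) and next in replicate 1 of DMSO (37.2 CPM), against 5.61 to 22.0 in the other 6 libraries. Its leading genes were Kit, the stem cell factor receptor, which blood progenitors carry too, at 5.17 to 42.9 CPM, and Cpa3, a protease of mast cells and progenitors. Cpa3 stood at 3.59, 0.198, 20.8, 0.297, 0.42, 0.809, 0.699 and 1.18 CPM.

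The platelet and megakaryocyte genes shared the granule genes' 2 highest libraries. Pf4 (platelet factor 4) was at 11.4, 0, 24.0, 0.538, 0.74, 1.75, 6.04 and 0.765 CPM. Ppbp, the precursor of the chemokine CXCL7, was at 7.18, 0, 10.5, 0, 0, 0.308, 1.55 and 0 CPM. Itga2b, the integrin subunit alpha IIb of the fibrinogen receptor, was at 18.2, 1.99, 36.9, 6.26, 4.34, 5.40, 12.1 and 5.15 CPM. Replicate 1 of SGC-CBP30 came next after these libraries for all 3, a place that replicate 2 of Ctrl PIP took for Mpo, Elane and Ngp. Gp9, a subunit of the von Willebrand factor receptor, ranged from 0 to 1.63 CPM with the same highest library. The lineage summed to 37.5, 1.99, 72.9, 6.79, 5.18, 7.71, 20.0 and 5.91 CPM. Per kilobase, Pf4 averaged 9.60 CPM and Itga2b 3.29 CPM over the 8 libraries.

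Of 11 further platelet genes, all were tested and 9 were highest in replicate 1 of EnPGC-1. The 2 most abundant were not among those with a wide range. Itgb3, the partner of Itga2b, which activated T cells also carry, was at 53.7 to 92.1 CPM, and Selp (P-selectin) at 2.33 to 9.01 CPM with its highest values in SGC-CBP30. Vwf, which megakaryocytes and endothelium make and which was named after its values were seen, was at 9.03, 0, 16.8, 0.167, 0.32, 0.751, 3.77 and 0.373 CPM. Pecam1, the most abundant gene of the stromal and endothelial list, was at 119 to 222 CPM with its highest value in SGC-CBP30, and Col1a1 was next at 0.618 to 2.52 CPM.

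**Figure D2:**
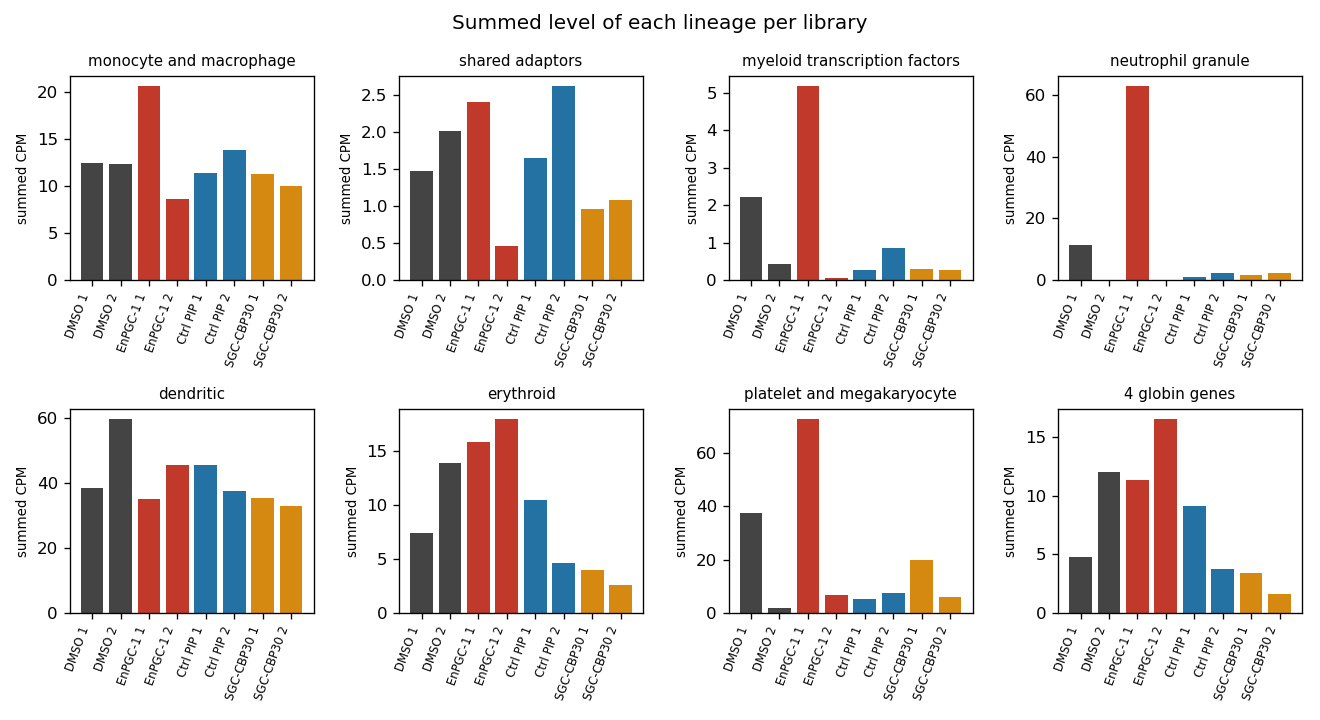
Summed CPM of each lineage's members, and of the 4 globin genes, in each library (bars start at 0, coloured by group, 1 bar per library). The neutrophil granule bar reaches 63.0 in replicate 1 of EnPGC-1 and is at most 11.5 elsewhere, the globin bar is highest in replicate 2 of EnPGC-1 at 16.6 and the dendritic bars, made mostly of Cst3, lie between 33.0 and 59.9.

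The erythroid genes split into early and late ones. Klf1, the transcription factor of red cell precursors, was at 1.66, 0.375, 2.84, 0.167, 0.32, 0.193, 0 and 0.354 CPM, in the order of Mpo and Pf4 at the top. Hbb-bs, an adult beta globin, was at 1.47, 4.15, 4.44, 6.76, 3.12, 1.50, 1.44 and 0.727 CPM, so that replicate 2 was above replicate 1 in DMSO and in EnPGC-1. Hbb-bt was at 1.02, 2.33, 2.26, 3.27, 1.78, 0.674, 0.589 and 0.205 CPM. The alpha globins had the same highest and lowest libraries as the beta globins. Hba-a1 was at 1.26, 2.81, 2.72, 3.60, 2.28, 0.983, 0.736 and 0.410 CPM. Hba-a2 was at 1.05, 2.75, 1.92, 2.93, 1.98, 0.559, 0.626 and 0.298 CPM. The 4 globins summed to 4.80, 12, 11.3, 16.6, 9.16, 3.72, 3.39 and 1.64 CPM, with both SGC-CBP30 libraries below all 6 others.

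Epor, the erythropoietin receptor, varied less, at 0.880, 1.28, 1.60, 0.928, 0.82, 0.674, 0.607 and 0.578 CPM. Alas2, the red cell enzyme that starts haem synthesis, was found in 3 libraries at 0.119, 0.278 and 0.12 CPM and was at 0 in the others. Of 20 further erythroid genes, 19 were matched by symbol, 16 were tested and 12 of those were highest in replicate 1 of EnPGC-1. The most abundant were Tfrc, the transferrin receptor of dividing cells, at 186 to 393 CPM and highest in Ctrl PIP replicate 2, and Slc25a37, the mitochondrial iron carrier, at 42.1 to 89.6 CPM. Car1, carbonic anhydrase 1, which was named after its values were seen, was at 10.5, 0.474, 23.8, 0.334, 0.68, 1.12, 3.68 and 1.25 CPM, with the same 2 highest libraries as Klf1.

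**Figure D3:**
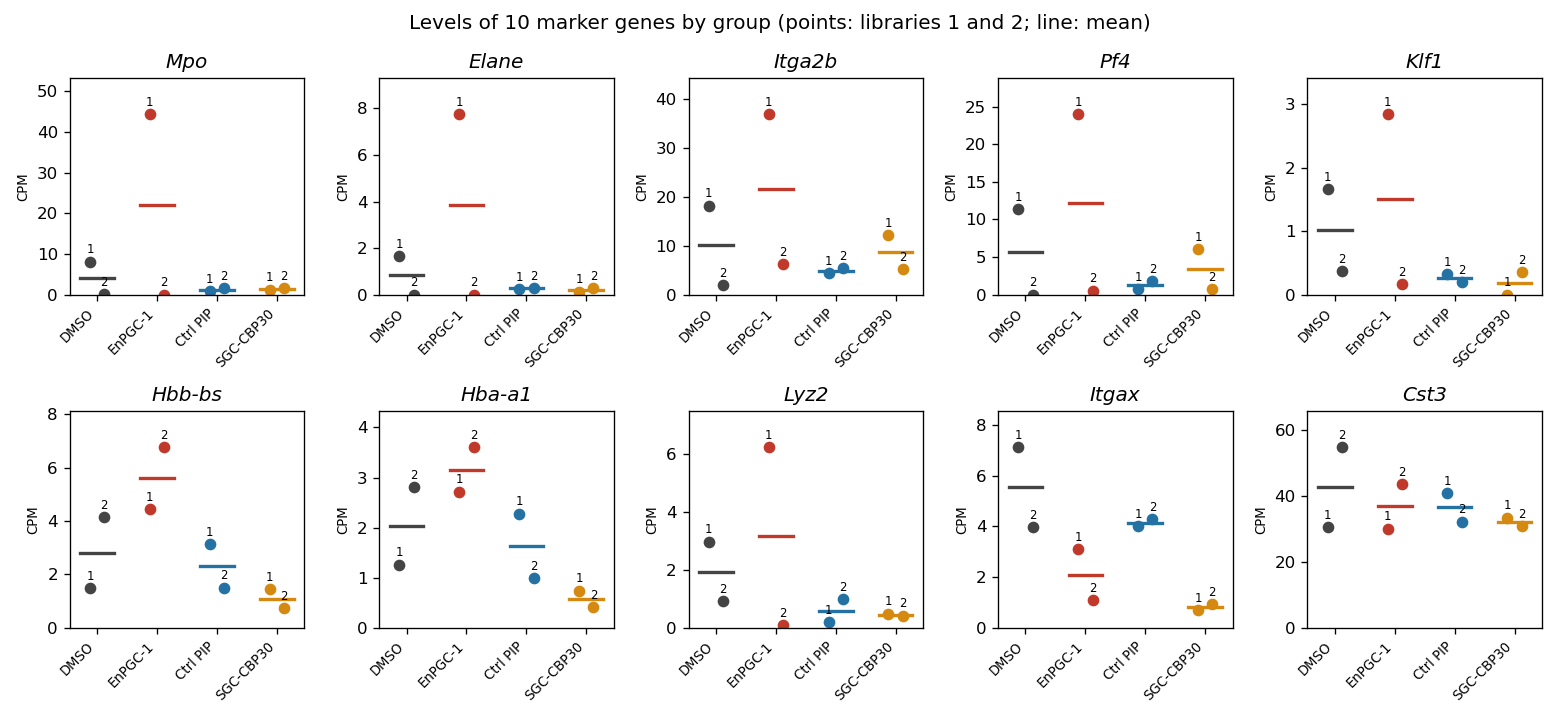
CPM of 10 marker genes in the 4 groups (x axis), with the 2 libraries as points numbered by replicate and the group mean as a line; each panel has its own linear axis from 0. Mpo reaches 44.3 CPM in replicate 1 of EnPGC-1 and 0 in replicate 2, Hbb-bs has replicate 2 above replicate 1 in DMSO and EnPGC-1, and Cst3 stays between 30.0 and 54.6 CPM.

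Myeloid transcription factors followed the granule genes. Spi1 encodes PU.1, which drives macrophage and granulocyte development, and was at 1.47, 0.336, 1.87, 0, 0.18, 0.347, 0.202 and 0 CPM. Cebpa, which directs granulocyte precursors, was at 0.737, 0.099, 3.33, 0.056, 0.10, 0.520, 0.092 and 0.261 CPM. Lyz2 (lysozyme), made by macrophages and neutrophils alike, had the same highest library, at 2.97, 0.909, 6.24, 0.093, 0.20, 0.983, 0.478 and 0.410 CPM.

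Some genes narrower to macrophages had another order. Csf1r, the receptor for macrophage colony-stimulating factor, was at 0.652 CPM in replicate 2 and 0.261 in replicate 1 of DMSO, 0.728 in replicate 1 of EnPGC-1, and at most 0.096 in the other 5 libraries. Cd14, the lipopolysaccharide co-receptor, was highest in replicate 2 of DMSO at 0.810 CPM, and was at 0 in both Ctrl PIP and both SGC-CBP30 libraries. Fcgr1, the high-affinity IgG receptor, was listed only in replicate 2 of DMSO, at 0.158 CPM. Adgre1, which encodes the macrophage antigen F4/80, was highest in the same library at 0.435 CPM, next at 0.380 in replicate 1 of DMSO, and at 0 in both SGC-CBP30 libraries. The complement genes C1qa, C1qb and C1qc, tissue macrophage genes named after their values were seen, stood at 1.15, 1.20 and 1.11 CPM in replicate 2 of DMSO and at 0 in all other libraries, apart from 0.056 CPM of C1qa in replicate 2 of SGC-CBP30. Of the list of 16 further macrophage and monocyte genes, 6 were tested. Unlike the complement genes, 4 of those 6 were highest in replicate 1 of EnPGC-1. The most abundant gene of the list, the protease Ctss, was at 99.3 to 145 CPM, with Ly86 next at 0.239 to 1.54 CPM.

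The members also known in activated T cells and NK cells included the steadiest and some that varied widely. Cst3, the protease inhibitor cystatin C, abundant in dendritic cells, was the most abundant member at 30.3, 54.6, 30.0, 43.5, 40.7, 32.1, 33.3 and 30.7 CPM, which averaged 42.9 CPM per kilobase. Cd68, a lysosomal protein of macrophages, was at 4.99, 5.61, 7.19, 5.53, 6.72, 8.73, 7.20 and 6.12 CPM. Itgam, the CD11b integrin subunit, was at 1.50, 2.17, 2.31, 2.08, 2.04, 1.10, 1.84 and 2.09 CPM. For Cst3 and Itgam each treated group overlapped DMSO, and for Cd68 both Ctrl PIP and both SGC-CBP30 libraries were above both DMSO libraries. Fcgr3, the low-affinity IgG receptor, was at 2.19, 1.58, 3.67, 0.835, 2.14, 2.70, 1.69 and 1.42 CPM. Fcer1g, the signalling chain that Fc receptors share, was at 1.12, 1.13, 1.48, 0.334, 1.00, 2.24, 0.810 and 1.01 CPM, and Tyrobp (DAP12) ranged from 0.075 to 0.923 CPM. The 7 members summed to 47.6, 69.9, 48.6, 53.5, 57.3, 51.5, 45.7 and 42.4 CPM, a 1.65-fold range that was mostly that of Cst3, since Tyrobp ranged 12.4-fold, Itgax 10.2-fold, Fcer1g 6.69-fold and Fcgr3 4.39-fold. The other 30 summed to 63.5, 20.6, 167, 26.2, 18.3, 17.7, 27.7 and 12.8 CPM.

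The markers of single dendritic subsets were near absent. Xcr1 and Clec9a, receptors of the cross-presenting dendritic cells, had counts in 1 library each, at 0.146 CPM in replicate 1 and 0.056 CPM in replicate 2 of EnPGC-1. Siglech, of plasmacytoid dendritic cells, was listed in replicate 2 of DMSO (0.059 CPM) and replicate 1 of EnPGC-1 (0.170 CPM). Flt3, the growth factor receptor of dendritic cell and blood progenitors, reached 1.21 CPM in replicate 1 of EnPGC-1 and was at most 0.261 elsewhere. Zbtb46, the transcription factor of classical dendritic cells, was even at 0.975, 1.23, 0.704, 1.10, 0.86, 1.16, 1.22 and 1.31 CPM. Without Cst3 and Itgax the lineage summed to 0.860 to 2.23 CPM. Of 14 further dendritic genes, 9 were tested, and the 2 most abundant were Irf8 (64.2 to 269 CPM) and Ccr9 (20.1 to 124 CPM), both also known in activated or naive CD8+ T cells.

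Itgax, the CD11c integrin subunit (chr7:128129526-128150657 on GRCm38.p6), was the 1 member called in any fit. It was at 7.11 and 3.97 CPM in DMSO, 4.0 and 4.28 in Ctrl PIP, 3.08 and 1.08 in EnPGC-1, and 0.699 and 0.933 in SGC-CBP30. Both SGC-CBP30 libraries and both EnPGC-1 libraries were below every DMSO and Ctrl PIP library. It is known in dendritic cells and in activated CD8+ T cells, and among dendritic markers Xcr1, Clec9a and Siglech were at 0 to 0.170 CPM and Zbtb46 at 0.704 to 1.31 CPM in the 8 libraries. Batf3, a transcription factor of dendritic and activated T cells from the further dendritic list, was named after its values were seen. It was low in the same groups as Itgax, at 2.69, 2.84, 0.267, 0.631, 2.42, 3.45, 0.258 and 0.354 CPM. The rest of that list was mixed. Of its 9 tested genes, 5 had fold changes above 0 for EnPGC-1 against DMSO (50.2% of genes). For SGC-CBP30 against DMSO 3 did (47.2% of genes). The part of dendritic cells in the Itgax levels was not tested. Group means were 5.54 ± 2.22 CPM in DMSO, 4.14 ± 0.196 in Ctrl PIP, 2.08 ± 1.42 in EnPGC-1 and 0.816 ± 0.165 in SGC-CBP30 (SD, n = 2 libraries each). Ordered by mean, DMSO and Ctrl PIP overlapped, and the other neighbours did not. For SGC-CBP30 against DMSO the log2 fold change was -2.76 (SE 0.60, 95% interval -4.20 to -1.32), with an adjusted p of 0.943 in edgeR's quasi-likelihood test. DESeq2's Wald test gave -2.77 with an adjusted p of 0.0040, within a range of 0.0040 to 1 over the alternatives for this result. For EnPGC-1 against DMSO it was -1.42 (SE 0.57, 95% interval -2.78 to -0.05; edgeR adjusted p = 0.998). Without the first libraries of both groups it was -1.88 with an edgeR adjusted p of 0.0411, within a range of 0.0411 to 1. Ctrl PIP differed from DMSO by -0.42 (SE 0.56) and EnPGC-1 from Ctrl PIP by -1.0 (SE 0.56, 95% interval -2.35 to 0.36).

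The libraries of a group were then set against each other. Of the 37 members, 23 were highest in replicate 1 of EnPGC-1, 6 in its replicate 2, 4 in replicate 2 of DMSO, 2 in replicate 2 of Ctrl PIP and 1 each in replicate 1 of DMSO and replicate 2 of SGC-CBP30. Among the 31 tested members, 20 were highest in replicate 1 of EnPGC-1, where 23.8% of all 16750 tested genes were. For replicate 2 of EnPGC-1 this held for 4 tested members (10.7% of genes), and for replicate 2 of DMSO for 3 (28.3%). Replicate 2 of Ctrl PIP had 2 (5.77%), replicate 1 of DMSO 1 (10.8%) and replicate 2 of SGC-CBP30 1 (9.86%). The first libraries of Ctrl PIP (3.31%) and SGC-CBP30 (7.38%) were highest for 0 tested members. All 7 neutrophil granule genes, all 4 platelet genes and both transcription factors were highest in that library. Replicate 1 exceeded replicate 2 by more than 2 on the log2 CPM scale in both DMSO and EnPGC-1 for 13 of 31 members (41.9%) and for 633 of all tested genes (3.78%). These members were Spi1, Cebpa, S100a8, S100a9, Ngp, Ltf, Mpo, Elane, Klf1, Pf4, Ppbp, Itga2b and Gp9. The size of such a difference depends on the prior count of 2 where a library is at 0. All 4 globins had replicate 2 higher in both groups, by 1.13 to 1.47 in DMSO and by 0.40 to 0.60 in EnPGC-1.

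**Figure D4:**
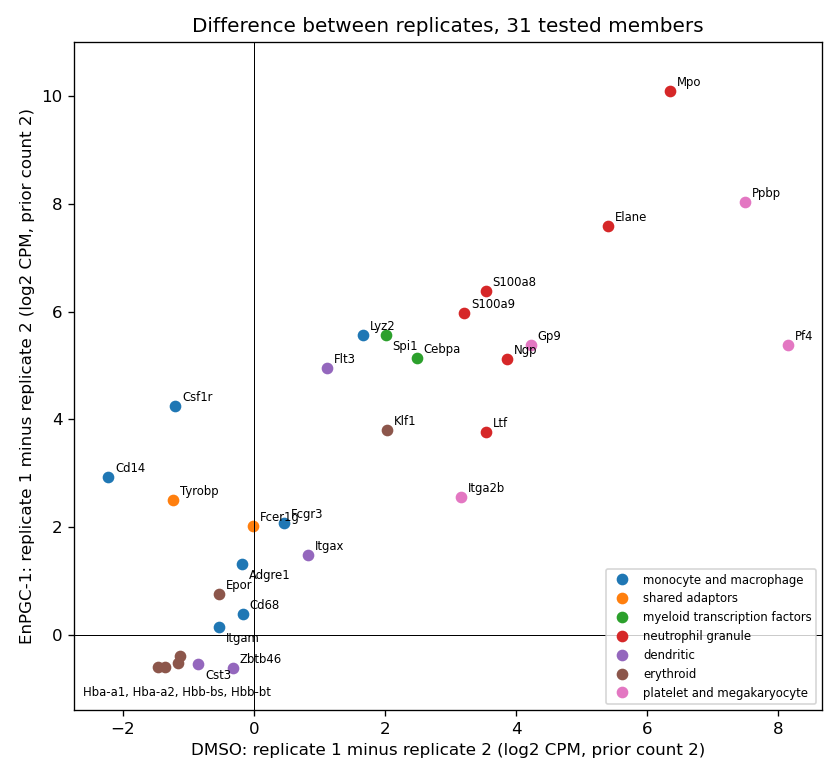
Replicate 1 minus replicate 2 in log2 CPM (prior count 2) for the 31 tested members, with DMSO on the x axis and EnPGC-1 on the y axis, coloured by lineage. Of these, 13 lie above 2 on both axes, among them Mpo, Pf4 and Cebpa, and the 4 globins lie below 0 on both.

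The same libraries differed in genes at large. The median absolute difference between the 2 libraries of a group was 1.47 for the members and 0.729 for all tested genes in DMSO, 2.93 and 0.560 in EnPGC-1, 0.813 and 0.197 in Ctrl PIP, and 0.921 and 0.203 in SGC-CBP30. The difference also moved with transcript length. Genes under 1000 bases (2176 genes) had a median of -0.85 in DMSO and -0.62 in EnPGC-1, and genes of 4000 bases or more (4773 genes) 0.61 and 0.39, as log2 of CPM plus 0.05. The globin transcripts, 554 to 703 bases long, lay on the side of the short genes, as did Cst3 (860 bases). Pf4 (588 bases), S100a8 (498 bases), S100a9 (519 bases), Gp9 (881 bases) and Elane (984 bases) lay on the opposite side. Tyrobp (597 bases) and Fcer1g (683 bases) differed between the groups, at -1.23 and -0.01 log2 CPM in DMSO and 2.50 and 2.02 in EnPGC-1. Some genes of CD4+ and regulatory T cells differed too. The 4 genes of the CD4+ T cell list summed to 38.7, 14.8, 30.8, 14.9, 19.3, 19.5, 20.0 and 20.0 CPM, led by Zbtb7b and Cd4. Cd4 was higher in replicate 1 of both groups (14.1 and 4.54 CPM in DMSO, 10.4 and 6.26 in EnPGC-1), whereas Zbtb7b was higher in replicate 1 of DMSO (13.2 and 9.78 CPM) and lower in replicate 1 of EnPGC-1 (5.12 and 6.24 CPM). Foxp3, named after its values were seen, was at 9.46, 0.198, 13.8, 1.62, 1.76, 2.25, 3.55 and 2.11 CPM. The parts of length and of other T cells in the members' differences were not tested.

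EnPGC-1 against DMSO set the compound against its vehicle. Granule and platelet genes had higher means with EnPGC-1, which rested on 1 library. Mpo averaged 22.2 ± 31.3 CPM with EnPGC-1 and 4.07 ± 5.67 with DMSO (SD, n = 2 each), a log2 fold change of 2.45 (SE 2.46, 95% interval -3.46 to 8.35). Pf4 averaged 12.2 ± 16.6 and 5.68 ± 8.03 CPM (1.11, SE 2.25), and Itga2b 21.6 ± 21.6 and 10.1 ± 11.5 CPM (1.09, SE 1.13). Over the alternatives the log2 fold change of Mpo ran from -10.7 to 8.51. That of Pf4 ran from -3.39 to 12.3 and that of Itga2b from -0.69 to 3.45. For each of these genes the SD of a group was as large as its mean or larger, and the groups overlapped. Hbb-bs differed by 0.99 (SE 0.65, 95% interval -0.58 to 2.56), Cd68 by 0.26 (SE 0.28) and Cst3 by -0.21 (SE 0.33). Of the 31 tested members, 0 passed edgeR's adjusted threshold of 0.05 (background 0% of 16750 genes), 1 member, Itgax, had an unadjusted p under 0.05 (2.61% of genes), and DESeq2 called 0 (0.0829% of genes). Log2 fold changes were above 0 for 23 members (50.2% of genes). Both EnPGC-1 libraries were above both DMSO libraries for 1 member, Hbb-bs (9.81% of genes), and below for 2, Itgax and Adgre1 (9.23%). The median over the members was 0.55 against 0.00 for all genes. It was -2.38 without replicate 1 of EnPGC-1 and -0.24 without the first libraries of both groups.

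Ctrl PIP against DMSO gave fold changes below 0 for most members, with wide errors. Lyz2 averaged 0.591 ± 0.553 CPM with Ctrl PIP and 1.94 ± 1.46 with DMSO, a log2 fold change of -1.71 (SE 1.60). Cd68 differed by 0.54 (SE 0.28) and Cst3 by -0.22 (SE 0.33). Cd14 was at 0 in both Ctrl PIP libraries and at 0.143 and 0.810 CPM in DMSO. Its DMSO mean of 0.476 CPM was 8.09 times a floor of 3 counts per library in Ctrl PIP. This ratio leaves out the spread between the DMSO libraries. No member (0) passed edgeR's adjusted threshold (background 0%), 0 had an unadjusted p under 0.05 (0.597% of genes) and DESeq2 called 0 (0.00428%). Fold changes were above 0 for 3 of 31 members (41.5% of genes). Both libraries were above both DMSO libraries for 1 member, Cd68 (8.35% of genes), and below for 6, Csf1r, Adgre1, Cd14, Flt3, Klf1 and Epor (7.83%). The median was -0.97 against -0.05 for all genes, and ranged from -1.57 to -0.29 as single libraries were left out, with -0.29 without replicate 1 of DMSO.

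SGC-CBP30 against DMSO had the most members with libraries that did not overlap. The globins were low in both SGC-CBP30 libraries. Hba-a1 averaged 0.573 ± 0.230 CPM with SGC-CBP30 and 2.03 ± 1.09 with DMSO, a log2 fold change of -1.82 (SE 0.64, 95% interval -3.35 to -0.29). Hbb-bs averaged 1.08 ± 0.501 and 2.81 ± 1.89 CPM (-1.38, SE 0.67, 95% interval -2.98 to 0.22). Hba-a2 differed by -2.03 (SE 0.81) and Hbb-bt by -2.07 (SE 0.77). All 6 tested erythroid members, the globins, Klf1 and Epor, had both SGC-CBP30 libraries below both DMSO libraries, with a median of -1.93. Over all lineages this was so for 14 of 31 members (14.5% of genes), and 1 member, Cd68, was above (16.2%). By edgeR 0 members passed the adjusted threshold (background 0%), and 5 had an unadjusted p under 0.05, all lower (4.39% of genes in either direction): Itgax, Adgre1, Hba-a1, Hba-a2 and Hbb-bt. DESeq2 called 1, Itgax (0.364% of genes). Adgre1 and Cd14 were at 0 in both SGC-CBP30 libraries. Their DMSO means were 7.33 and 8.57 times a floor of 3 counts per library. These ratios leave out the spread of DMSO, where Cd14 was at 0.143 and 0.810 CPM. Fold changes were above 0 for 3 members (47.2% of genes), and the median was -1.57 against -0.03 for all genes. Without replicate 1 of DMSO it was -0.22.

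The low globin values with SGC-CBP30 stood beside lower levels of B cell and MHC class II genes, but the lists did not all go the same way. The 12 genes of the B cell list summed to 75.0, 51.3, 74.5, 63.0, 51.2, 31.1, 32.4 and 26.0 CPM. All 12 had fold changes below 0 for SGC-CBP30 against DMSO, where 47.2% of all tested genes were above 0. Of these, 4 had an unadjusted p under 0.05 by edgeR (4.39% of genes in either direction). The 2 most abundant, Cd79b and Bank1, were at 16.3 to 26.9 and 5.20 to 13.7 CPM. The 7 MHC class II genes summed to 76.9 to 194 CPM, led by H2-DMa (46.9 to 84.7 CPM) and Cd74 (23.1 to 69.3 CPM). Their lowest sum was in replicate 2 of SGC-CBP30, and all 7 fold changes were below 0. For Ctrl PIP against DMSO all 12 B cell and all 7 MHC class II fold changes were below 0 too (41.5% of genes above 0). The medians there were -1.27 and -1.19, against -2.26 and -1.41 with SGC-CBP30. The B cell sum was highest in replicate 1 of DMSO, and these lists were not fitted without that library. All 3 tested genes of the stromal and endothelial list had fold changes above 0 for SGC-CBP30 against DMSO, with a median of 0.97. Of the 10 CD8+ T cell genes, 8 were below 0 there and 2 above, with a median of -0.22. The 8 NK genes summed to 67.4 to 143 CPM, led by Eomes (40.0 to 73.1 CPM) and Cd160 (12.2 to 49.1 CPM), which activated CD8+ T cells express as well. The part of a change in these cells in the globin levels was not tested.

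EnPGC-1 against Ctrl PIP compares the compounds directly, without the DMSO libraries in the contrast. The other 3 comparisons share the DMSO libraries and are not independent of each other. Mpo averaged 22.2 ± 31.3 CPM with EnPGC-1 and 1.21 ± 0.495 with Ctrl PIP, a log2 fold change of 4.19 (SE 2.67). Itga2b averaged 21.6 ± 21.6 and 4.87 ± 0.746 CPM (2.15, SE 1.17, 95% interval -0.65 to 4.94). Hbb-bs averaged 5.60 ± 1.64 and 2.31 ± 1.14 CPM (1.28, SE 0.66, 95% interval -0.30 to 2.86), and its libraries did not overlap. Cst3 differed by 0.01 (SE 0.33) and Cd68 by -0.28 (SE 0.28). Of the members 0 passed edgeR's adjusted threshold (background 0%), 1, Flt3, had an unadjusted p under 0.05 (4.48% of genes), and DESeq2 called 0 (0.19%). Flt3 was at 0 in both Ctrl PIP libraries and in replicate 2 of EnPGC-1, so its libraries overlapped. Fold changes were above 0 for 25 of 31 members (54.1% of genes). Both EnPGC-1 libraries were above both Ctrl PIP libraries for 6 members (20.7% of genes), Itgam, Itga2b, Epor, Hba-a1, Hbb-bs and Hbb-bt, and below for 1, Itgax (21.7%). The median was 2.15 against 0.05 for all genes, or 1.81 with the 4 members that were at 0 in Ctrl PIP set at their bound, and -0.55 without replicate 1 of EnPGC-1.

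**Figure D5:**
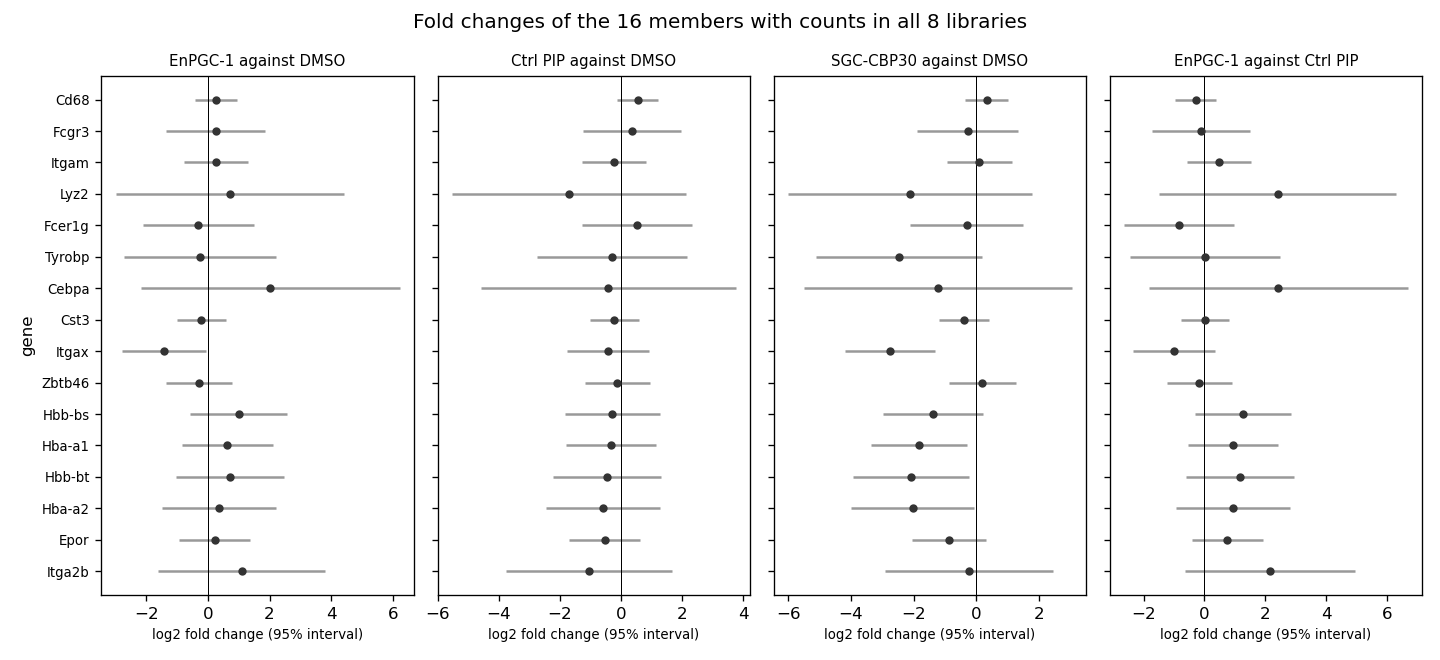
Log2 fold changes (points) with 95% intervals (lines) from edgeR for the 16 members with counts in all 8 libraries, in the 4 comparisons (panels). The interval of Itgax lies below 0 for SGC-CBP30 against DMSO (-4.20 to -1.32), those of Cd68 and Cst3 are short and cross 0 in every panel, and those of Itga2b are wide.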

How the data were processed

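Whole-number counts per gene for 45777 genes in 8 libraries were deposited by the authors, with no pooling. RNA was extracted with an RNeasy kit and made into libraries with the TruSeq Stranded mRNA kit, per the labels' protocols. HISAT2, StringTie, DESeq2 and mm10 are named without versions, per the submitters' processing notes, and the sources used here do not give the counting step, its strand setting or its filter. A second deposited table holds the authors' rlog values, regularized log2 counts of 16442 genes, which shrink differences of genes with low counts and entered 1 alternative only. Symbols came from a RefSeq table on GRCm38.p6, which matched 99.8% of gene IDs, and lengths from GENCODE M21.

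Counts of all 8 libraries were fitted with edgeR 4.0.16 (R 4.3.3; TMM, filterByExpr by group with a minimum count of 10, robust quasi-likelihood, 4 residual degrees of freedom). This left 16750 genes, 31 of them members. Tests were two-sided with Benjamini-Hochberg adjustment at 0.05 over all genes tested. CPM used TMM library sizes, and log2 CPM a prior count of 2. Alternatives were DESeq2 1.42.0, its size factors within edgeR, no filter, a replicate block, 4 libraries only, limma 3.58.1 on the log2 values and each library left out. Fits without the first or second libraries of DMSO and EnPGC-1 were added after seeing the data. Values in every library are given for the 22 members with a mean of at least 0.5 CPM, and of each other list the 2 genes of highest mean are named. The members and lists were chosen with earlier results of these data known. The 6 members below the filter (Fcgr1, Camp, Xcr1, Clec9a, Siglech and Alas2) are described without a test.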

Additional observations from a re-analysis of the deposited data

How the results depend on the processing

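By edgeR's quasi-likelihood test 0 members passed the adjusted threshold in all 4 comparisons, with 0 to 5 members at an unadjusted p under 0.05 there and up to 8 under the alternatives. The count of 0 called held under all alternatives except 2: DESeq2 called 1 member (Itgax) for SGC-CBP30 against DMSO, and the fit that left out replicate 1 of both DMSO and EnPGC-1 called 1 (Itgax) for EnPGC-1 against DMSO. The median log2 fold change of the tested members for EnPGC-1 against DMSO (0.55) ranged from -2.38 to 0.96 as single libraries were left out, negative only without replicate 1 of EnPGC-1. That for EnPGC-1 against Ctrl PIP (2.15) ranged from -0.55 to 2.92, also negative only without that library. That for SGC-CBP30 against DMSO (-1.57) ranged from -2.09 to -0.22 and was -0.15 on the rlog values. That for Ctrl PIP against DMSO (-0.97) ranged from -1.57 to -0.29, and was -0.54 with only the 4 libraries compared and -0.11 on the rlog values, which shrink differences by construction. Apart from rlog, the cause was not tested. Where 1 library of a group was left out, the one that remained was assumed to vary like the other groups. The globins stayed lower with SGC-CBP30 than with DMSO in all 10 alternatives. Leaving out the members also known in T or NK cells lowered the dendritic sum in replicate 2 of DMSO from 59.9 to 1.38 CPM, with 2.23 CPM then the highest, in replicate 1 of EnPGC-1. It lowered the monocyte and macrophage sum in replicate 1 of EnPGC-1 from 20.6 to 7.48 CPM. In all, 78 of 93 alternative values kept to the reported one within the spread between libraries or its side of the threshold. This tally is a weak check. It includes counts of 0 called, and in the main fit 0 of the 16750 genes passed. For EnPGC-1 against DMSO the spread was 2.02 log2 units. A median of -0.24, with replicate 1 of both groups left out, therefore counted as kept to 0.55. For EnPGC-1 against Ctrl PIP the spread was 2.01, and 1.00 with a replicate block counted as kept to 2.15. The library with the lowest total count (38890043, replicate 1 of EnPGC-1) had the fewest members at 0 (3), and the one with the highest (55491261, its replicate 2) the most (15).

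The groups share the replicate numbers 1 and 2. Deviations of same-numbered libraries correlated across genes, which are not independent replicates, at r = 0.666 for DMSO with EnPGC-1, 0.227 for DMSO with SGC-CBP30 and 0.231 for EnPGC-1 with SGC-CBP30. For Ctrl PIP r was -0.252 with DMSO, -0.226 with EnPGC-1 and -0.0387 with SGC-CBP30, and with only 2 numbers the pairing is not shown. With the replicate number as a block, 0 members were called in each comparison, and the medians were 0.36 for EnPGC-1 against DMSO, -0.35 for Ctrl PIP against DMSO, -1.09 for SGC-CBP30 against DMSO and 1.00 for EnPGC-1 against Ctrl PIP.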
